A study of Mus musculus with 94 samples.

Results

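The genes described here are 9 cell surface molecules that steer leukocytes out of the bone marrow and towards tissue: the chemokine receptors Ccr1, Ccr2, Ccr3, Cxcr2 and Cxcr4, the prostaglandin D2 receptor Ptgdr2, the sphingosine 1-phosphate receptors S1pr1 and S1pr4, and the P-selectin ligand Selplg. They were taken by name from a table of 46078 gene identifiers, and all 9 were matched to an identifier. Their levels were read in single basophils of mouse bone marrow from female C57BL/6 mice with no stated genetic change or treatment, of an age not given in the sources used here. The study sorted 47 cells into a CD34-positive gate and 47 into a CD34-negative gate. CD34 marks blood stem cells and their early progeny. Cells of both gates were live, negative for the lineage antibodies and for Sca1, and positive for FcεRI, the high-affinity receptor for IgE. The design names 3 mice and the labels do not say which mouse gave which cell, which leaves 1 sample for each gate. A test between gates was therefore not possible, and no p-value is given.

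Chemokine receptors, the prostaglandin D2 receptor and the sphingosine 1-phosphate receptors are G protein-coupled receptors that turn a gradient of ligand outside the cell into directed movement. In the marrow, CXCR4 holds developing leukocytes near stromal cells that make CXCL12, and loss of this signal goes with release into blood. CXCR2 and CCR2 are known for drawing neutrophils and monocytes out of the marrow, S1PR1 for guiding lymphocytes towards sphingosine 1-phosphate in blood, and P-selectin glycoprotein ligand 1, the product of Selplg, for rolling on inflamed vessels. Mature basophils are known to carry CCR2, CCR3 and the prostaglandin D2 receptor, also called CRTH2.

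Ccr1, Ccr3 and Ccr2 lie within 151 kb of each other on chromosome 9, in that order, while the other members lie on chromosomes 1, 3, 5, 10 and 19. Among the 8 members with reads in at least 10 kept cells, Ccr2, Ccr3 and Cxcr2 had the widest gaps between gates towards the CD34-negative side. Of these 8, only Cxcr4 was measured higher on the CD34-positive side. The promoter sequences of Ccr2, Ccr3, Cxcr2 and Cxcr4 are shown so that genes with opposite patterns can be set beside each other. Each is the 250 bases before the RefSeq start site in build GRCm38.p6, read 5′ to 3′ on the gene's strand. Capitals mark matches to 4 short motifs searched on both strands. Gene positions given below are those of the GENCODE annotation of GRCm38, the assembly that mm10 denotes, and cover the whole gene. For Ccr2 that gene starts at base 124101950, so most of the sequence shown, with its marked motif, lies inside the annotated gene.

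Ccr2, chr9:124101933-124102182, plus strand: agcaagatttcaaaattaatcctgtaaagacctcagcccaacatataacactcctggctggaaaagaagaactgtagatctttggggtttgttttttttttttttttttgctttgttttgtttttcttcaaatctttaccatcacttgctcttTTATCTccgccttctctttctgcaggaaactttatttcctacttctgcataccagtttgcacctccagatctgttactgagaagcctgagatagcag

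Ccr3, chr9:124021721-124021970, plus strand: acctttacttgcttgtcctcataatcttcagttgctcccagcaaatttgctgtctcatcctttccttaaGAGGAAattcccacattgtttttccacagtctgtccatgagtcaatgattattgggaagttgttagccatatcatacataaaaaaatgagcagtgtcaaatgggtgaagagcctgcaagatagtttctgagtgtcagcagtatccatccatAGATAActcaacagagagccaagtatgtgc

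Cxcr2, chr1:74153744-74153993, plus strand: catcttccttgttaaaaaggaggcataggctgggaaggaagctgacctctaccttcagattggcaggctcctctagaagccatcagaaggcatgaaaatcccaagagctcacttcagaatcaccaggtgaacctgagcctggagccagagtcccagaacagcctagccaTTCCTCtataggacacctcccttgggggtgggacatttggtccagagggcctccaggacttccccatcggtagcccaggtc

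Cxcr4, chr1:128592300-128592549, minus strand: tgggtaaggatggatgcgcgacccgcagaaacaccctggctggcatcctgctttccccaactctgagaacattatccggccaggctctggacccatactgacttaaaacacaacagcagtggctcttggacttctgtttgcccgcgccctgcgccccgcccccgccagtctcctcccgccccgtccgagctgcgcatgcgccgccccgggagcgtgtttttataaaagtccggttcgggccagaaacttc

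The motifs were AGATAA (bound by GATA factors), TTGCNNAA (C/EBP factors), GAGGAA (ETS factors) and TGTGGT (RUNX factors), and no match overlapped another. RefSeq windows of 300 bases, reaching 50 bases past the start site, were found for 7 of the 9 members. Both Ccr2 and Ccr3 had 1 match to AGATAA, at base -97 on the opposite strand and at base -30 on the gene's strand, counted from the start site. Of 32851 windows of that length, 11.2% held this motif. Ccr3 also had 1 match to GAGGAA, at base -181, and Cxcr2 had 2, at bases -81 and 7, the second of which lies past the sequence shown. GAGGAA stood in 28.3% of all windows, TGTGGT in 16.8% and TTGCNNAA in 10.8%. The Cxcr4 window held none of the 4 motifs. It had a GC content of 59.3%, against 38% for Ccr2, 39% for Ccr3, 54% for Cxcr2 and a median of 52.7% over all windows. A match is a run of letters and was not tested as a binding site.

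Each cell gave a count of reads per gene, and 92 cells were kept, 46 per gate. Kept cells had 262944 to 938322 gene reads in the CD34-negative gate and 374011 to 1154738 in the CD34-positive gate. CD34-positive cells held more endogenous RNA per spike-in, with a median of 14.4 gene reads to each ERCC read against 6.87 among CD34-negative cells. Levels are given as CPM, reads per 1000000 gene reads, of a single cell or of all kept cells of a gate together. Basophil markers were present in both gates, with a median of 9 of 10 markers above 10 CPM per cell, and Cd34 itself stood at 0.21 CPM in the negative gate, with reads in 4 of 46 cells, and at 59.9 CPM in the positive gate, with reads in 28 of 46 cells. Signature genes of mast cells, neutrophils and megakaryocytes were near 0 in both gates, with list sums of at most 7.36 CPM. Sums for the negative and the positive gate were 76.7 and 112 CPM for eosinophil markers (Siglecf at 76.5 and 60.3 CPM, and Prg2 at 0 and 48.0 CPM, with 96.5% of the Prg2 reads in CD34-positive cell 34, without which the sum of that gate was 65.0 CPM, while without its leading cell 5 the negative gate was at 56.0 CPM), 64.0 and 49.0 CPM for B cell markers (mostly Cd79b) and 0.81 and 24.2 CPM for erythroid markers. T and NK cell markers summed to 78.7 and 696 CPM, nearly all Nkg7, a cytotoxic granule gene, with Cd3g, Trac and Ncr1 at 0. The part of these genes in the results was not tested. The list of monocyte and dendritic cell markers summed to 80.9 and 95.5 CPM in the negative and the positive gate, most of it Ms4a6c. Its highest value in a single cell was 1179 CPM, in the cell described next.

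One kept cell went against its label. Cell 10 of the CD34-negative gate had Csf1r at 966 CPM, Cd74 at 12273 CPM, C1qa at 1833 CPM and C1qb at 3119 CPM, genes typical of macrophages, and only 7.61 CPM of Fcer1a, the IgE receptor chain of basophils. It had Ccr2 at 977 CPM and Selplg at 783 CPM, while Ccr1, Ccr3, Cxcr2, Cxcr4 and S1pr1 were at 0. A second cell stood apart: in cell 1 of the CD34-positive gate, 49.0% of gene and ambiguous reads could not be assigned to a single gene, Prss34 was at only 50.1 CPM, and S1pr1 reached 1986 CPM. Both cells were kept in the values below, and values without one or the other are given beside several results.

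Ccr2, Ccr3 and Cxcr2 were lower in CD34-positive than in CD34-negative cells by the widest margins among the members, and Cxcr4 was higher, with these directions shared by the gate total, mean per-cell CPM, scran, TMM and ERCC scalings. Reads of 8 of the 9 members were found in at least 10 kept cells, the minimum used for counting differences. Of these, 5 were at least 2-fold lower in CD34-positive cells (Ccr2, Ccr3, Cxcr2, S1pr4 and Selplg), where 10.1% of 12460 genes were. Only Cxcr4 was at least 2-fold higher, where 21.7% of genes were, and Ccr1 and S1pr1 lay within 2-fold. In either direction the count was 6 of 8, beside 31.7% of all genes. S1pr4 and Cxcr4 lay on the 2-fold line itself and Ccr1 just inside it, and leaving out single cells gave counts from 4 to 7. S1pr1 crossed the line as well: without cell 1 of the CD34-positive gate it was at -1.32 and S1pr4 at -0.98, and the count was again 6 with other members. Without cell 10 the count was 5, since Cxcr4 then had a log2 fold of 0.99. Folds are log2 ratios of CPM plus 1, CD34-positive over CD34-negative, and a negative value means lower in CD34-positive cells. The median over the 8 members was -1.20, against 0.19 over all genes tested, and -1.36 without cell 1 of the CD34-positive gate.

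The scaling matters for these values. With size factors from scran or TMM, 6 members were at least 2-fold lower, Ccr1 included, and Cxcr4 lay within 2-fold. The split of all genes moved with them: 13.98% of genes were at least 2-fold lower and 17.4% higher with scran, and 13.98% and 17.7% with TMM. Scaled by ERCC spike-in reads, which keeps differences in total RNA per cell, the median of all genes was 1.06, with 2.34% of genes at least 2-fold lower and 52.7% higher. The members' median on that scale was -0.24. Ccr2, Ccr3 and Cxcr2 were then still at least 2-fold lower, at -2.62, -3.28 and -1.48, and Cxcr4 at least 2-fold higher, at 1.96. Selplg and S1pr4 were at -0.44 and -0.04.

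**Figure D1:**
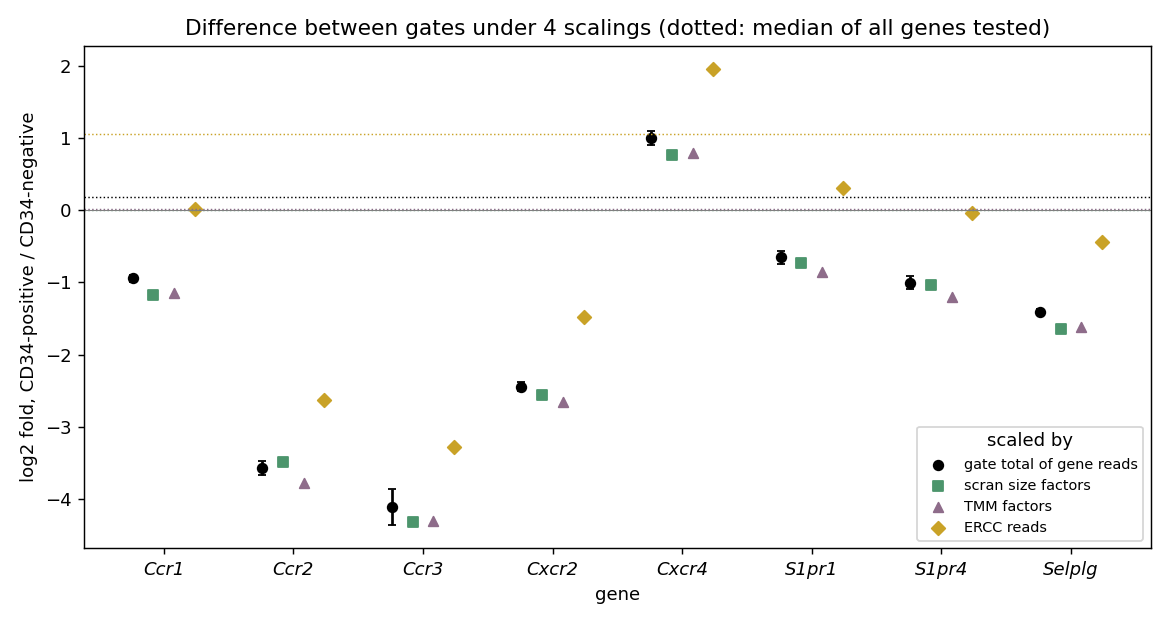
Log2 fold of summed reads, CD34-positive over CD34-negative, for the 8 members with reads in at least 10 cells, under 4 scalings. Black bars, for values scaled by the gate total, set the 95% counting bound of one gate against the opposite bound of the other. Dotted lines are the median of all 12460 genes under the scaling of the same colour. Ccr2, Ccr3 and Cxcr2 lie below -1 and Cxcr4 above 0 under all 4, while Ccr1 and S1pr1 are negative under 3 scalings and at 0.02 and 0.31 with ERCC reads.

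Cxcr4 (ENSMUSG00000045382, chr1:128588199-128592293, minus strand), the receptor for CXCL12 and the marrow retention signal, was found in nearly all CD34-positive cells and in fewer than 1 in 2 of the CD34-negative cells. Its level over the 46 CD34-negative cells ran from 0 to 867 CPM with a median of 0. CD34-positive cells ran from 0 to 552 CPM with a median of 131. The ranges overlap, but 26 CD34-negative cells had no read against 1 CD34-positive cell. With 200000 gene reads drawn from each cell, so that depth was equal, 19 of 46 CD34-negative cells had a Cxcr4 read, a share of 41.3% (exact 95% interval 27% to 56.8%). Among CD34-positive cells the share was 44 of 46, 95.7% (85.2% to 99.5%). Such intervals cover counting of cells only and not differences between mice. Summed over the gates the gap was narrower, 67.5 against 136 CPM, a log2 fold of 1.00 (counting interval 0.90 to 1.11). CD34-negative cell 5 alone held 25.4% of its gate's Cxcr4 reads, and the fold was 1.39 without it. The fold was 0.77 with scran, 0.80 with TMM and 1.96 with ERCC scaling, so the direction was shared by these scalings and the size was not.

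**Figure D2:**
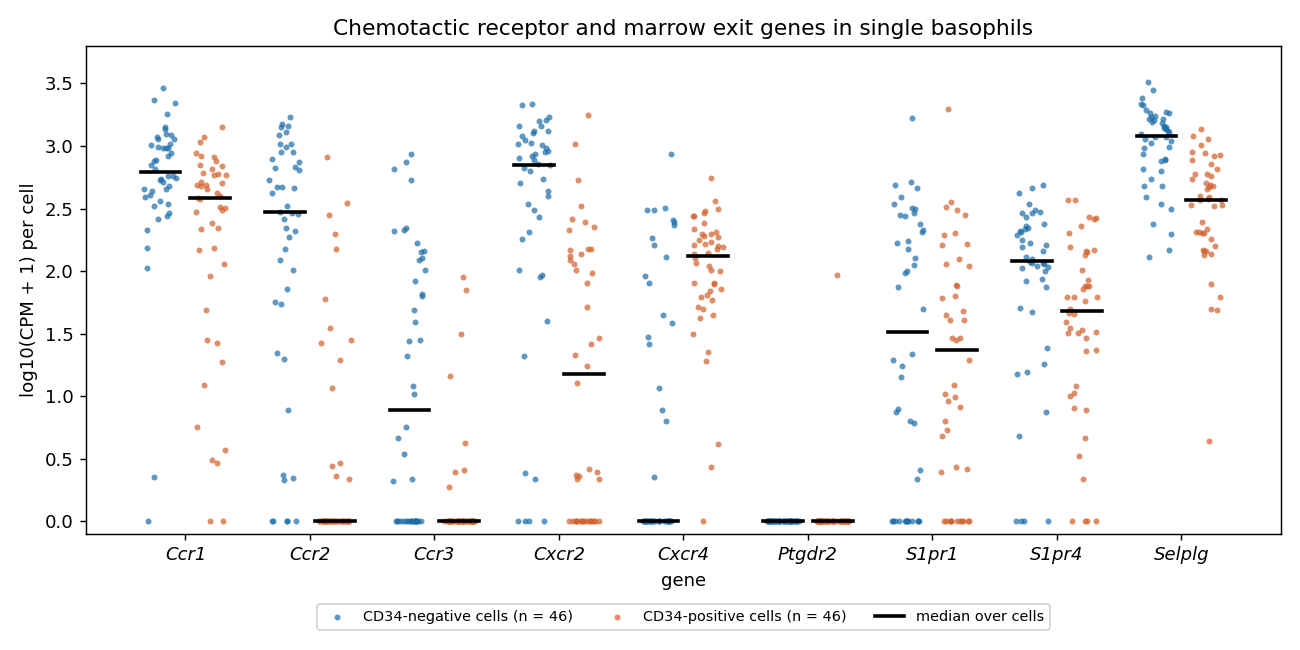
CPM of each member in every kept cell, on a log10(CPM + 1) axis, with 46 CD34-negative cells in blue, 46 CD34-positive cells in orange and black bars for the medians over cells; points at 0 are cells without a read. The Cxcr4 medians are 0 (blue) and 131 CPM (orange), and those of Ccr2 are 295 and 0 CPM.

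Ccr2 (ENSMUSG00000049103, chr9:124101950-124113557, plus strand), the receptor for CCL2, showed the opposite pattern. CD34-negative cells ran from 0 to 1709 CPM with a median of 295, and CD34-positive cells from 0 to 809 CPM with a median of 0. Reads were absent from 5 and from 31 cells. At equal depth 40 of 46 CD34-negative cells had a read, a share of 87.0% (73.7% to 95.1%), and 13 of 46 CD34-positive cells, a share of 28.3% (16% to 43.5%). The summed level was 493 CPM against 40.5 CPM, which is 12.2-fold, and the log2 fold was -3.57 (-3.68 to -3.47). A single cell, number 37 of the CD34-positive gate, held 46.1% of that gate's Ccr2 reads, and the fold was -4.40 without it. Leaving out the macrophage-marked cell 10 gave -3.56. Of the 50-base stretches in Ccr2 transcripts, 1.91% also occur in other genes.

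Ccr3 (ENSMUSG00000035448, chr9:124021972-124031689, plus strand), the eotaxin receptor, had a log2 fold beyond that of Ccr2 by gate totals, but not with a pseudocount of 10 CPM (-2.88 against -3.32). It was patchy even among CD34-negative cells, from 0 to 857 CPM with a median of 7.04, and 18 of these cells had no read. CD34-positive cells reached at most 89.2 CPM with a median of 0, and 38 of them had no read. At equal depth Ccr3 was found in 25 of 46 cells, or 54.3% (39% to 69.1%), against 6 of 46, or 13% (4.94% to 26.3%). Its summed level was 97.9 against 4.70 CPM, or 20.9-fold, with a log2 fold of -4.12 (-4.37 to -3.87). The fold was -5.06 among cells numbered 7 to 42 and -3.28 with ERCC scaling. On the CD34-positive side only 141 reads were counted, 46.8% of them in cell 46, and without that cell the fold was -4.80.

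Cxcr2 (ENSMUSG00000026180, chr1:74153989-74161246, plus strand), the receptor for the CXCL1 family and best known from neutrophils, was abundant in CD34-negative basophils. These cells ran from 0 to 2165 CPM with a median of 710. CD34-positive cells ran from 0 to 1777 CPM, but their median was 14.1, and 16 of them had no read against 4 CD34-negative cells. At equal depth the shares were 41 of 46, or 89.1% (76.4% to 96.4%), and 24 of 46, or 52.2% (36.9% to 67.1%). Neutrophil markers were near 0 beside it, with list sums of 0.06 and 0.80 CPM in the 2 gates. The summed Cxcr2 level was 720 against 131 CPM, a 5.48-fold gap and a log2 fold of -2.45 (-2.51 to -2.38). CD34-positive cell 37, the one that led Ccr2, also held 31.2% of the Cxcr2 reads of its gate, and the fold was -2.95 without it. The search for shared stretches found 6.68% of the 50-base stretches of Cxcr2 in other genes, mostly Gm26764.

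**Figure D3:**
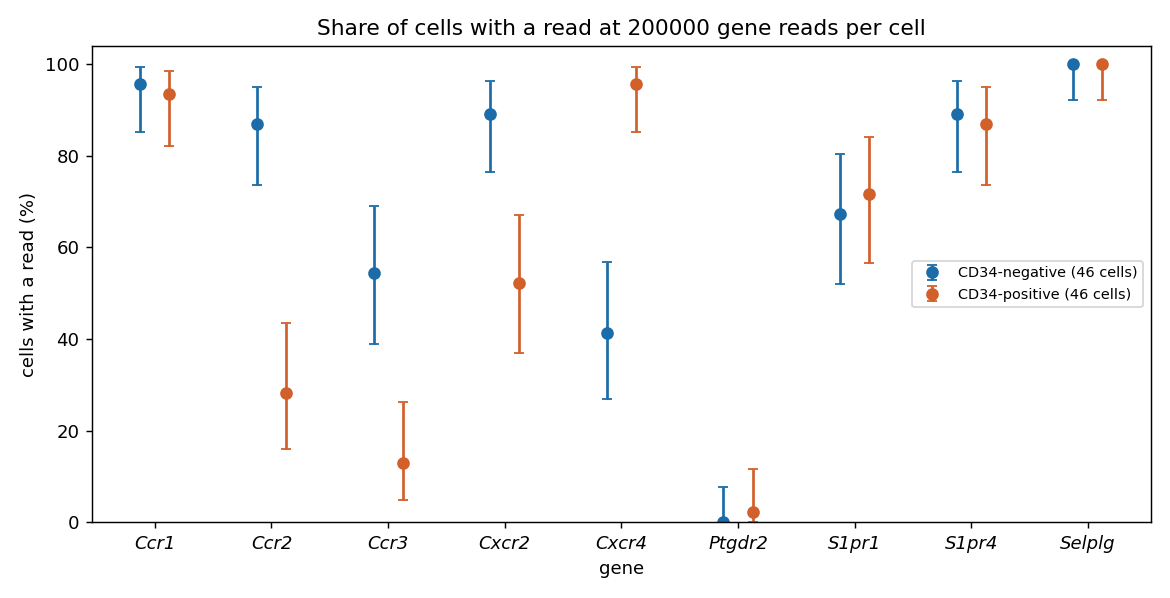
Percent of the 46 kept cells of each gate with at least 1 read after 200000 gene reads were drawn from each cell; bars are exact 95% binomial intervals for the number of cells. The intervals of the 2 gates lie apart for Ccr2, Ccr3, Cxcr2 and Cxcr4 and overlap for the other 5 genes. They leave out differences between mice and are no test between gates.

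Ccr1 (ENSMUSG00000025804, chr9:123962124-123968692, minus strand), a receptor for CCL3 and related chemokines, was present in nearly every cell of both gates. CD34-negative cells ran from 0 to 2907 CPM with a median of 616, and CD34-positive cells from 0 to 1413 CPM with a median of 381. Only 1 and 2 cells lacked a read, and the ranges overlap. Summed levels were 808 and 420 CPM. The log2 fold of -0.94 (-0.99 to -0.90) became 0.02 with ERCC scaling, so per unit of spike-in the gates had nearly the same Ccr1 level. Unlike Ccr2 and Ccr3, its neighbours on the chromosome, Ccr1 was found at equal depth in like shares of cells, 95.7% (85.2% to 99.5%) and 93.5% (82.1% to 98.6%).

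S1pr1 (ENSMUSG00000045092, chr3:115710433-115715072, minus strand), the receptor of lymphocyte egress, differed little between gates and strongly between cells. CD34-negative cells ran from 0 to 1685 CPM with a median of 34.7, and CD34-positive cells from 0 to 1986 CPM with a median of 22.8. At equal depth 67.4% (52.0% to 80.5%) and 71.7% (56.5% to 84.0%) of cells had a read. The log2 fold of the sums, 162 against 103 CPM, was -0.65 (-0.74 to -0.56) and rested on single cells. It was -1.32 without CD34-positive cell 1, which held 38.5% of that gate's reads, and -0.21 without CD34-negative cell 3, which held 28.4%, and it turned to 0.31 with ERCC scaling.

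S1pr4 (ENSMUSG00000044199, chr10:81497747-81500132, minus strand), a sphingosine 1-phosphate receptor of blood cells, was spread more evenly. CD34-negative cells ran from 0 to 483 CPM with a median of 120, and CD34-positive cells from 0 to 371 CPM with a median of 46.9. Both gates had 4 cells without a read. Its summed level was 162 against 80.6 CPM, a log2 fold of -1.0 (-1.10 to -0.90) that was -0.04 with ERCC scaling. No single cell held over 10.8% of its reads in a gate.

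Selplg (ENSMUSG00000048163, chr5:113818536-113832644, minus strand), whose product binds P-selectin, was the only member with reads in all 92 cells. CD34-negative cells ran from 129 to 3251 CPM with a median of 1206.5, and CD34-positive cells from 3.38 to 1372 CPM with a median of 372. The median CD34-negative cell thus lay near the top of the CD34-positive range, although the ranges overlap. The summed level was 1241 against 467 CPM and the log2 fold -1.41 (-1.45 to -1.37), with a value of -0.44 under ERCC scaling. Leaving out any 1 cell kept the fold between -1.48 and -1.36.

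Ptgdr2 (ENSMUSG00000034117, chr19:10937160-10942511, plus strand), which encodes the prostaglandin D2 receptor CRTH2, was almost undetected. The CD34-negative gate had 0 reads in 33444417, which allows up to 0.0897 CPM at a limit of 3 reads and up to 0.110 CPM by the exact 95% Poisson interval. All 47 reads of the CD34-positive gate came from cell 42, at 92.3 CPM in that cell, and no fold is given for 1 cell. Of the 2644 exon bases of Ptgdr2, 1031 overlap exons of Ccdc86 on the other strand, reads there may be left uncounted or assigned to either gene, and whether counting used strand is not given in the sources used here. The other 1613 exon bases overlap no other gene's exons.

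Levels of different genes can be set side by side only per length. The length used joins the exons of all annotated transcripts of a gene and need not be that of the transcript made. It was longest for Ccr2, at 6760 bases. Per kilobase of exon, the order among CD34-negative cells was Selplg at 291, Ccr1 at 285, Cxcr2 at 236, Ccr2 at 73.0, S1pr4 at 68.0, S1pr1 at 53.2, Cxcr4 at 37.3 and Ccr3 at 29.9 CPM per kilobase. Among CD34-positive cells it was Ccr1 at 148, Selplg at 109, Cxcr4 at 75.4, Cxcr2 at 43.1, S1pr4 and S1pr1 at 33.8 each, Ccr2 at 5.99 and Ccr3 at 1.43 CPM per kilobase. Cxcr4 was thus the seventh of the members in one gate and the third in the other. In neither order did any 2 neighbours differ by more than the larger of their SDs over cells. These SDs are spreads between cells and not errors of a gate's level.

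Which chemokine receptor leads within a cell does not depend on the scaling between cells. Per kilobase, Ccr1 led in 27 of 46 cells in both gates. The remaining CD34-negative cells were led by Cxcr2 in 16, Ccr2 in 2 and Cxcr4 in 1. The remaining CD34-positive cells were led by Cxcr4 in 17 and Cxcr2 in 2. With reads not divided by length, Ccr1 led 21 CD34-negative and 30 CD34-positive cells, Cxcr2 led 16 and 2, Cxcr4 led 0 and 14, and Ccr2 led 9 CD34-negative cells in place of 2.

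Single cells held reads of several members. At 200000 gene reads, CD34-negative cells had reads of 6.24 ± 1.21 members (SD, n = 46 cells) and CD34-positive cells of 5.43 ± 1.36 (SD, n = 46 cells), with a median of 6 in both gates. The difference of -0.80 was smaller than the SD over cells, which is a spread between cells and not the error of a gate's mean. Counting at the same depth only members with at least 10 reads gave medians of 6 and 4 and means of 5.46 and 3.98. Summed over the 9 genes, the median cell had 3729 CPM in the CD34-negative gate, with a range of 1019.9 to 7020, and 1176 CPM in the CD34-positive gate, with a range of 140 to 5490.

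Ccr2 and Cxcr4 had opposed levels over the cells of the CD34-negative gate, although many cells held reads of both. Of the 20 cells with a Cxcr4 read, 15 also had a Ccr2 read. At 10 CPM or more, 28 of these 46 cells had Ccr2 only, 8 had Cxcr4 only, 9 had both and 1 had neither. Spearman's rho over the 46 cells was -0.58. It stayed between -0.58 and -0.54 without cell 10, without 2 strongly cycling cells, per ERCC read, at equal depth and among cells numbered 7 to 42. These correlations describe cells that share mice and a plate, and no p is attached to them. In the CD34-positive gate 32 cells had Cxcr4 only, 11 had both and none had Ccr2 only, with a rho of 0.14.

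**Figure D4:**
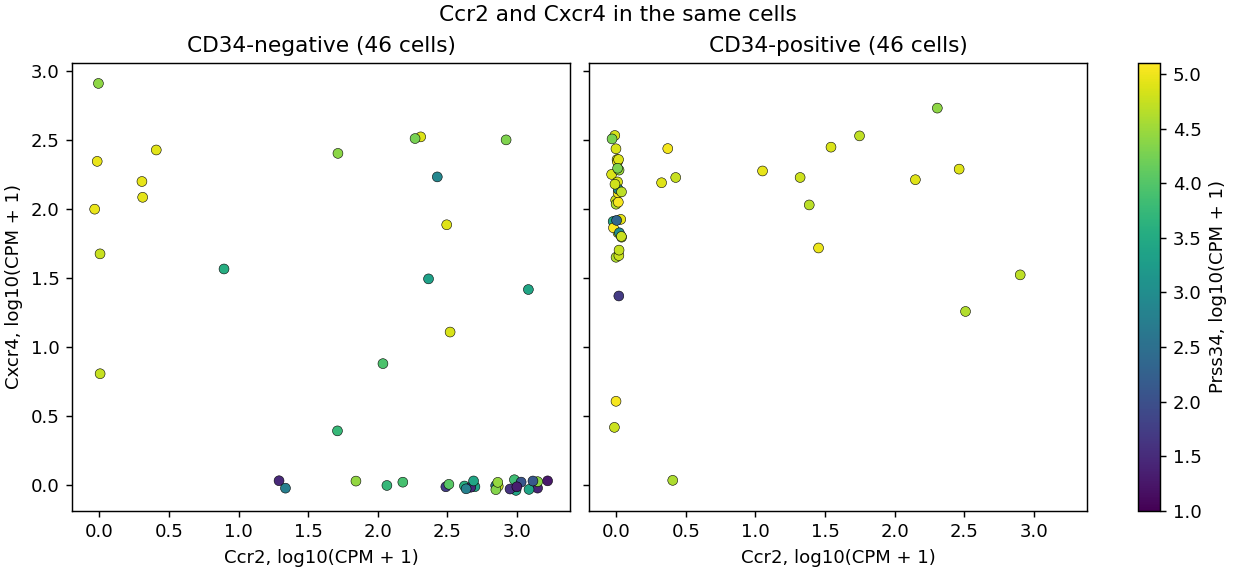
Ccr2 (horizontal) against Cxcr4 (vertical) in each kept cell, both as log10(CPM + 1), with a small random shift to part overlapping points and the colour giving Prss34. CD34-negative cells with Ccr2 but no Cxcr4 are mostly low in Prss34, and the CD34-positive cells gather at high Cxcr4 with Ccr2 at or near 0.

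In the CD34-negative gate, the same axis held genes of granule content and of progenitors. Over CD34-negative cells, Cxcr4 had a rho of 0.60 with Prss34 and 0.53 with Mcpt8, basophil granule proteases, and of 0.50 with both Ctsg and Mpo, granule genes of early myeloid cells. Ccr2 had the reverse signs, at -0.55, -0.50, -0.42 and -0.48. The amount of RNA moved with both genes: the rho with gene reads per ERCC read was 0.50 for Cxcr4 and -0.49 for Ccr2, and with the number of genes found per cell 0.56 and -0.52. Its part in the relation was not tested. The remaining members followed Prss34 less, with rho values from -0.36 (Cxcr2) to -0.01 (S1pr1). Most CD34-negative cells had little or no Mpo, so its values rest on sparse counts. In the CD34-positive gate Cxcr4 had a rho of only 0.19, 0.18, 0.18 and 0.20 with Prss34, Mcpt8, Ctsg and Mpo. Ccr2 had 0.09, 0.10, -0.05 and -0.17 there.

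**Figure D5:**
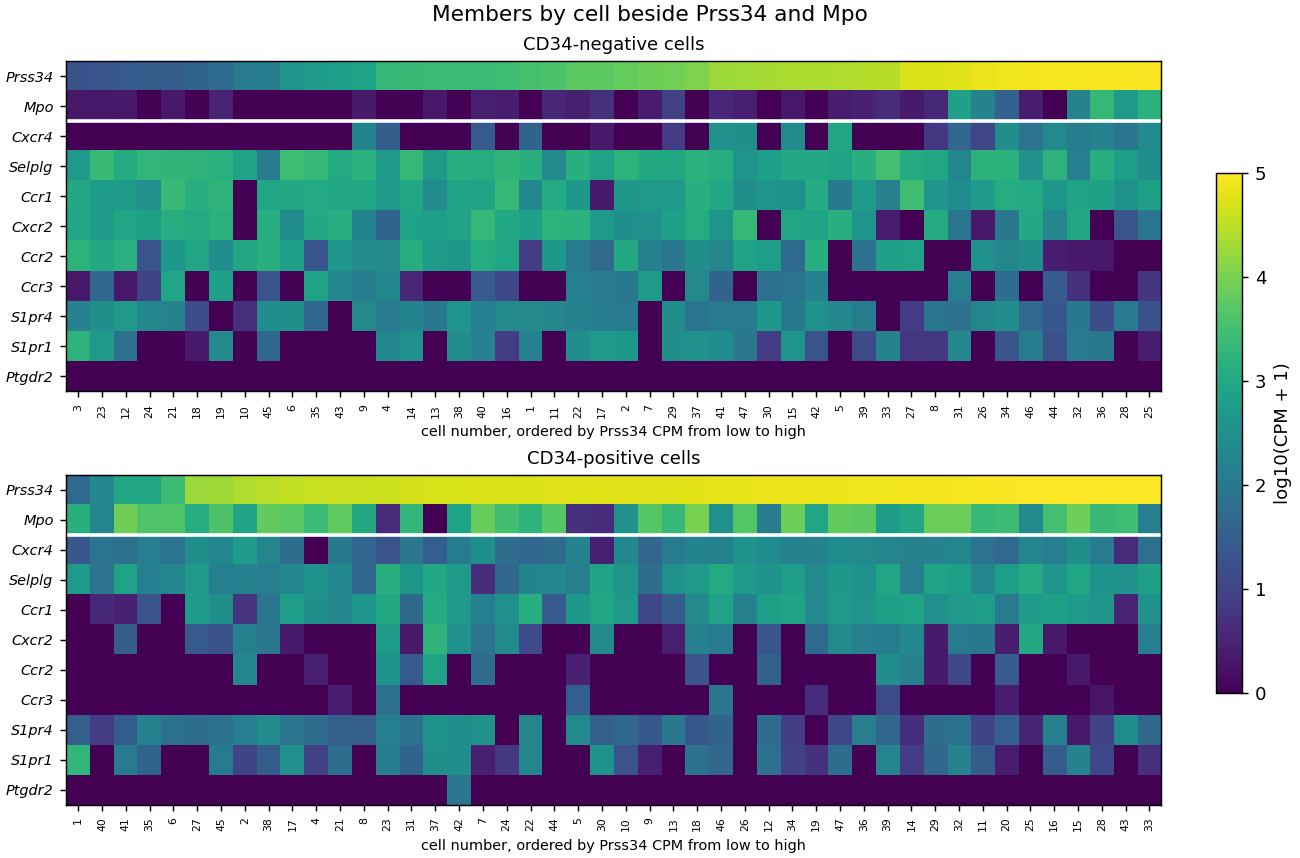
Members in each kept cell beside the granule genes Prss34 and Mpo, coloured by log10(CPM + 1), with cells of each gate ordered by Prss34 from low to high. Among CD34-negative cells the Cxcr4 row fills towards the right, where Ccr2 thins out, and Selplg is present across the whole row, as is Ccr1 except in cell 10.

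Pairs of members were also compared within each gate. Of 21 pairs of members with reads in at least 10 CD34-positive cells, 18 had a positive rho, with a median of 0.20 and a range of -0.11 to 0.42, the highest for Ccr1 and Cxcr2. Among 28 such pairs in the CD34-negative gate, 17 were positive, with a median of 0.08 and a range of -0.58 to 0.33. Values near these medians are weak for sparse counts. Over CD34-positive cells, the rho with Cd200r3, an activating receptor gene of mature basophils, was 0.64 for Ccr1, 0.45 for Selplg, 0.43 for Cxcr2, 0.41 for Ccr2 and -0.13 for S1pr4. Over CD34-negative cells the same genes had -0.05, 0.19, -0.21, -0.06 and 0.30, another order. S1pr1 and Cxcr4 had 0.15 and 0.13 over CD34-positive cells, and 0.18 and 0.04 over CD34-negative cells. In the CD34-positive gate the rho with Cd34 was -0.40 for Ccr1, -0.29 for S1pr1 and -0.23 for Selplg. It was -0.10 for Ccr2, -0.08 for S1pr4, -0.06 for Cxcr4 and -0.03 for Cxcr2. Measures of cell quality moved with some members in this gate: the rho with the percent of ambiguous reads was -0.43 for Selplg and -0.30 for Ccr1, and with the number of genes found -0.39 for Ccr2 and -0.29 for Cxcr2. Their part in these values was not tested. Cells 37 and 23 of this gate were high in several members at once: cell 37 had Ccr2 at 809, Cxcr2 at 1777 and Ccr1 at 1188 CPM, and cell 23 had Ccr2 at 350, Cxcr2 at 536, Ccr1 at 1076 and Selplg at 1372 CPM.

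The genes whose levels over cells were most like a member's were ranked by rho among 8363 genes in CD34-negative and 10797 genes in CD34-positive cells. The closest in the CD34-negative gate were Srsf1 (0.63), Prss34 (0.60) and Hnrnpul1 (0.60) for Cxcr4, and Grina (0.58), Gstm2-ps1 (0.54) and Atp6v1b2 (0.53) for Ccr2. For S1pr4 they were Ctsd (0.59) and Ctse (0.57), which encode the cathepsins D and E, and Abcc2 (0.56). Selplg was nearest to Sdhb (0.48), Cd44 (0.47) and Cyp4f18 (0.47), and S1pr1 to Acsl4 (0.53), Jak1 (0.52) and Plec (0.46). For Ccr1 the leading gene was Gm5402 (0.52), for Ccr3 Gm17137 (0.53) and for Cxcr2 Gm7676 (0.52). Gm5402 had reads in 16 and Gm17137 and Abcc2 in 15 each of the 46 cells, so these values rest on sparse counts.

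Over CD34-positive cells other genes led. Ccr1 was nearest to Il18rap (0.72), a chain of the interleukin 18 receptor, Mocos (0.67) and Slc41a3 (0.67). Selplg was nearest to Ltb4r1 (0.71), the leukotriene B4 receptor, Rac2 (0.68), a GTPase of leukocyte movement, and Ldha (0.65). Cxcr2 was nearest to Csf2rb (0.60), the shared chain of the interleukin 3, interleukin 5 and GM-CSF receptors, Dcaf12 (0.60) and Limd2 (0.57). The leading genes for the others were Col11a2 for Ccr2 (0.60), Rnf20 for Cxcr4 (0.52), Gm26809 for S1pr1 (0.52) and Ell for S1pr4 (0.49), with Gm26809 reads in 16 and Col11a2 reads in 23 of the 46 cells. These values are the highest of a wide search over cells that share mice and a plate, and are given as a description.

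Other chemoattractant receptors were compared as a list of 35 genes, of which 11 had no read in any kept cell and 12 had reads in at least 10 cells. Of these 12, 7 were at least 2-fold lower in CD34-positive cells, 2 at least 2-fold higher and 3 within 2-fold, where 10.1% and 21.7% of all genes were lower and higher. The median log2 fold was -1.42. With ERCC scaling it was -0.47, with 4 of the 12 lower and 3 higher, beside 2.34% and 52.7% of all genes. C3ar1, the receptor for complement C3a, was at 767 CPM on the CD34-negative and 77.4 CPM on the CD34-positive side (-3.29 as a log2 fold). C5ar1, the receptor for C5a, was at 130 and 8.29 CPM (-3.81, and -5.04 without CD34-positive cell 33, which held 65.1% of its gate's reads), and C5ar2 at 58.8 and 28.2 CPM (-1.03). The complement receptors thus lay on the same side as Ccr2 and Cxcr2, although C5ar2 was at -0.86 without its leading cell, CD34-negative cell 30, and at -0.09 with ERCC scaling. Gpr183, which responds to oxysterols, was at 392 and 111 CPM, and Hrh4, the histamine H4 receptor, at 143 and 39.9 CPM. The Hrh4 fold of -1.81 was -2.45 without CD34-positive cell 37, which held 38.1% of its gate's reads. Ptafr, the receptor for platelet-activating factor, was at 23.5 and 5.23 CPM (-1.98), and CD34-positive cell 34 held 89.2% of that gate's reads, so that the fold was -3.95 without it. S1pr2 was at 36.9 and 8.19 CPM, a log2 fold of -2.04 that was -1.36 without CD34-negative cell 3, which held 40.4% of the reads of its gate, and -2.57 without CD34-positive cell 7.

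On the other side were 2 receptors with few reads in CD34-negative cells. Cx3cr1, the fractalkine receptor, was at 0.12 and 11.1 CPM with reads in 2 and 14 cells, and its log2 fold of 3.43 was 2.74 without CD34-positive cell 35, which held 42.5% of the reads of its gate. Ltb4r2 was at 0.30 and 11.3 CPM with reads in 2 and 15 cells. Ltb4r1 was at 102 and 137 CPM, a log2 fold of 0.42. Cmklr1 (-0.65) and Cxcr6 (-0.57) were negative by gate totals and positive with ERCC scaling (0.26 and 0.31) or without their leading cell (0.03 and 0.64). Without cell 10 the Cxcr6 fold was -0.25, and without CD34-positive cell 20 it was -2.20. Ccrl2 was found in 8 cells only, and 1 of them, CD34-positive cell 1, held most of the reads of its gate.

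Ligands made by the basophils themselves were read from a list of 18 genes. Only 3 had reads in at least 10 cells, and all 3 were at least 2-fold lower in CD34-positive cells under the gate total, scran, TMM and ERCC scalings, where 10.1%, 13.98%, 13.98% and 2.34% of all genes were. Ccl3, which binds CCR1, was at 1145 against 192 CPM (log2 fold -2.57), Ccl9 at 3409 against 526 CPM (-2.69) and Ccl6 at 4223 against 192 CPM (-4.45). CD34-positive cell 23 held 47.2% of the Ccl6 reads of its gate, and the fold was -5.34 without it. The list was compiled with earlier results on some of these genes known. Cxcl12, the ligand of CXCR4, had 0 reads in both gates.

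Signalling genes downstream of the receptors included G protein subunits, small GTPases and the regulators that end a signal. Of 24 tested genes, 7 were at least 2-fold lower in CD34-positive cells, 1 higher and 16 within 2-fold, beside 10.1% of all tested genes lower and 21.7% higher. The median of -0.66 turned to 0.30 with ERCC scaling, under which 1 gene was lower and 4 were higher, beside 2.34% and 52.7% of all genes. Gnai2, the G protein subunit of chemotaxis, was at 886 and 861 CPM. Rac2 was at 2021 and 1279 CPM, a log2 fold of -0.66 by gate totals and 0.31 with ERCC scaling. Rgs2 and Rgs1, which shorten G protein signals, were at 534 and 111 CPM (-2.26) and at 174 and 57.0 CPM (-1.60). The Rgs1 fold was -1.16 without CD34-negative cell 11, which held 27.9% of the reads of its gate, -2.04 without CD34-positive cell 22, -1.75 without CD34-positive cell 1 and -0.64 with ERCC scaling. Grk3, a kinase that desensitises receptors, lay on the other side, at 39.9 and 106 CPM. Its log2 fold of 1.39 was 2.88 without cell 10, which held 66.2% of the Grk3 reads of the CD34-negative gate, and 0.24 with scran size factors.

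Genes around sphingosine 1-phosphate included the transporter Spns2, at 18.3 and 111 CPM, a log2 fold of 2.53 found in 13 and 38 cells. CD34-negative cell 30 held 62.7% of the Spns2 reads of its gate, and without it the fold was 3.8. CD69, which pulls S1PR1 from the surface, is encoded by Cd69, at 57.9 and 26.5 CPM (-1.10, and -0.16 with ERCC scaling or -0.62 without CD34-negative cell 1). Of 7 tested genes of that list, 3 were at least 2-fold lower, 1 higher and 3 within 2-fold, against shares of 10.1% lower and 21.7% higher over all genes. The count depended on the setting: 1 was lower and 2 higher with ERCC scaling (2.34% and 52.7% of all genes), and 0 were lower with a pseudocount of 10 CPM (5.75% of all genes). Among cells numbered 7 to 42, 1 was lower (10.9% of all genes), and without the leading cell of each gene 1 was lower and 2 higher (6.09% and 25.8%).

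The enzymes that decorate selectin ligands, and other selectin partners, formed a list of their own. Of 14 tested genes, 2 were at least 2-fold lower, Cd44 among them, 1 higher (Cd24a) and 11 within 2-fold, where 10.1% of all genes were lower and 21.7% higher. The median was -0.03, and 0.92 with ERCC scaling, under which 0 genes were lower and 7 of the 14 higher, beside 2.34% and 52.7% of all genes. With scran and TMM factors 5 and 4 genes were lower, where 13.98% of all genes were. A pseudocount of 0.1 CPM gave 4, beside 11.5% of all genes. Leaving out the leading cell of each gene gave 1 lower and 2 higher, beside 6.09% and 25.8%. Fut7, the fucosyltransferase needed for selectin binding, was at 238 and 314 CPM, a log2 fold of 0.40. Cd44 was at 188 and 65.8 CPM (-1.50), and Cd24a, another P-selectin ligand, at 12.4 and 131 CPM (3.31).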

How the data were processed

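Per the labels' protocols, the wells of 1 plate each received a sorted cell and ERCC spike-in RNA, the cDNA went through 19 PCR cycles, and the reads are single-end and 50 bp long. The authors deposited whole read counts per gene and cell. GSNAP, HTSeq 0.5.3p3 and the build mm10 are named, per the submitters' processing notes. The annotation release and strand setting are not given in the sources used here. Of all reads, 32.4% fell in genes, 3.97% in ERCC sequences, 33.0% in no annotated gene, 7.68% were ambiguous and 22.9% not aligned, and only gene reads entered library sizes.

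Cells with at least 50000 gene reads, 1000 genes, under 20% mitochondrial and under 50% ERCC reads were kept, 92 of 94. Each gate is 1 sample, so reads were summed per gate. The 95% intervals are exact Poisson ones for CPM and Clopper-Pearson ones for shares of cells. Reads carry no molecular identifiers, so the intervals of CPM and folds cover counting of reads and not of molecules. No interval covers more than counting error. Log2 folds use a pseudocount of 1 CPM, and a fold interval sets the bound of one gate against the opposite bound of the other. Detection was compared after drawing 200000 gene reads per cell. No doublet caller and no clustering were applied to these singly sorted cells. The calculations were tested on simulated data.

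Named were the members, genes of the related lists with at least 10 CPM in a gate or a 2-fold gap, and the 3 genes of highest Spearman rho per member and gate (not all printed, and some genes are not reported here). Genes outside this rule (Cxcl12, Ccdc86, C1qa, C1qb, Cd74) were chosen after values were seen. The members and lists were chosen with earlier results of these data known. Alternatives were other scalings (mean per-cell CPM, scran, TMM, ERCC, no mitochondrial genes), pseudocounts, cell filters, depths and left-out cells. The tools were scran 1.30.0 and edgeR 4.0.16 (for TMM factors) in R 4.3.3, and pandas 2.3.3, scipy 1.17.1 and numpy 2.4.6 in Python 3.11.15.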

Additional observations from a re-analysis of the deposited data

Results flagged for a closer look

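The 2 cells left out for low depth held reads of several members, which entered no comparison. Cell 20 of the CD34-negative gate had 20 reads of Ccr2 and 6 reads of S1pr4 among 24565 gene reads. Cell 3 of the CD34-positive gate had 15 reads of Ccr1, 5 of Cxcr4 and 30 of Selplg among 31504 gene reads. Each of these counts is above the limit of 3 reads used for a count of 0. With both cells included the number of members at least 2-fold apart was again 6.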

How the results depend on the processing

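The number of members at least 2-fold apart was 6, ran from 4 to 7 when single cells were left out, and was below 6 in 73 of the 92 such cases. It was 4 of 8 with mean per-cell CPM, with ERCC scaling and with a pseudocount of 10 CPM, where 31.3%, 55.1% and 16.9% of all genes were at least 2-fold apart. The median log2 fold of the members, -1.20, was -1.41 with scran, -1.41 with TMM, -0.24 with ERCC scaling and -1.36 without CD34-positive cell 1, and ran from -1.36 to -1.16 when single cells were left out. Under ERCC scaling the folds of Ccr1 and S1pr1 changed sign, to 0.021 and 0.31, as all genes moved upwards on that scale. Of 112 alternative values of the 8 members other than Ptgdr2, 59 lay inside the counting interval of the main value, 51 lay outside it on the same side of 0, and 2 were reversed. The difference in members found per cell ran from -1.48, with at least 10 reads required, to -0.59, among cells numbered 7 to 42, and from -0.90 to -0.75 when single cells were left out. With no filter on low genes 24.2% of genes were at least 2-fold apart, and with at least 10 CPM in a gate 34.5%. The values that leave out CD34-negative cell 10 or CD34-positive cell 1, or the leading cell of a marker list, those that leave out each cell in turn for genes other than the members, and those for the rho of Ccr2 and Cxcr4, were chosen after seeing the data. No paired analysis was possible because a title's number names a cell and ties it to no cell of the other gate, and nothing here comes from a test. Depth may limit Ptgdr2 and the receptors with few reads, which was not tested. Differences between mice cannot be told apart from differences between cells.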
